A study of Mus musculus with 384 samples.

Results

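The genes described here are 32 genes of the cell cycle and of proliferation, taken by name from a deposited count table of 23481 genes, of which 16100 had at least 1 count. All 32 were found in the table. They were followed in bone-marrow-derived macrophages, cells that develop from marrow precursors in the presence of CSF1, after 1 of 12 innate immune ligands had been given for up to 4 h. The question was which ligands lower these genes within 4 h, and whether a decrease needs Myd88, an adaptor protein used by most Toll-like receptors and by receptors of the interleukin-1 family.

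The cells came from 13-week-old male C57BL/6 mice, either with the Myd88 gene knocked out (KO) or wild type (WT). Both genotypes had been transduced on day 4 with a pool of pathway reporter viruses, and both were kept in medium with serum and CMG and replated on day 9, so every group, time 0 included, carried the same virus pool. There were 2 plates of 96 wells for KO cells (replicates 1 and 2) and 2 for WT cells, and a plate held a single well for each ligand at each time. As ligands the study used LPS (lipopolysaccharide), MDP (muramyl dipeptide), both together (MDP/LPS), the lipopeptide Pam3Cys, the imidazoquinoline R848, CpG (DNA with unmethylated CpG motifs), Zymosan (particles of yeast wall), Poly(I:C) (a mimic of double-stranded RNA), and FLA, SeV, TDB and HT-DNA, printed as the labels give them. The times were 0, 0.5, 1, 1.5, 2, 2.5, 3 and 4 h, and no course without ligand is analysed here. The labels do not say whether the 2 plates of a genotype came from separate mice or cultures, so p-values measure the spread between these plates, and genotype cannot be told apart from plate.

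A cell commits to division in G1, when D-type cyclins with CDK4 or CDK6 phosphorylate the retinoblastoma protein and release E2F factors. E2F factors switch on genes for replication licensing and DNA synthesis. Genes of G2 and mitosis, among them Mki67, Top2a, Cdk1 and the B-type cyclins, are held down in resting cells by the DREAM complex, which binds a short promoter element called CHR, and are activated through CCAAT boxes bound by NF-Y. Macrophages grown in CSF1 divide, and arrest of this division after LPS has been described in such cells. The 32 genes fall into G1 cyclins (Ccnd1, Ccnd2, Ccne1 and Ccne2), replication licensing (Cdc6 and the helicase subunits Mcm2, Mcm3, Mcm4, Mcm5, Mcm6 and Mcm7), DNA synthesis (Pcna, Rrm1, Rrm2, Tyms and Tk1), S, G2 and M cyclins and kinases (Cdk1, Ccna2, Ccnb1, Ccnb2, Plk1, Aurka and Aurkb), the mitotic spindle, its checkpoint and mitotic exit (Birc5, Bub1, Bub1b, Cdc20, Ube2c, Kif11 and Nusap1) and the proliferation markers Mki67 and Top2a.

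The promoters of 3 members with many counts outside the G1 cyclins are shown because they hold these elements to different extents. They run 5′ to 3′ on the gene's strand, from 250 bases before to 50 after the start, and are credited to RefSeq with build GRCm38.p6. Capitals mark CHR (TTTGAA or TTTAAA) and CCAAT, each on either strand.
Mki67, chr7:135716330-135716629, minus strand: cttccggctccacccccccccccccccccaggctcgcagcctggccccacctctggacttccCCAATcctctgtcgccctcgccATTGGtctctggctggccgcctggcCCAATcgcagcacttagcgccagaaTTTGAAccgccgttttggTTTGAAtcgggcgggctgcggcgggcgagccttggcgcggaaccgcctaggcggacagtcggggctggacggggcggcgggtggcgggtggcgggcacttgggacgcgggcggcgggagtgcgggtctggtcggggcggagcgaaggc
Top2a, chr11:99024140-99024439, minus strand: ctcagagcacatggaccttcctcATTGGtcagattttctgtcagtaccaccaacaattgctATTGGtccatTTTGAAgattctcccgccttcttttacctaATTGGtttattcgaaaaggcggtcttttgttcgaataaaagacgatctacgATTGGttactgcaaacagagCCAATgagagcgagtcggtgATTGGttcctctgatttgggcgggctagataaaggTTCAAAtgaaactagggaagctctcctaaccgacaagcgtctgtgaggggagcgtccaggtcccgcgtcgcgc
Pcna, chr2:132253131-132253430, minus strand: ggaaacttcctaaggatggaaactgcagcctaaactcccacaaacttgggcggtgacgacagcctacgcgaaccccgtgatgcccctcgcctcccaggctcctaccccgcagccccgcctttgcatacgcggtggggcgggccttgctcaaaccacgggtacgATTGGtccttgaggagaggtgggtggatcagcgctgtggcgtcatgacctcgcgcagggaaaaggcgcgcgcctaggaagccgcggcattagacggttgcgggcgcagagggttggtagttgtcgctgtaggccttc
The Mki67 promoter held 2 CHR and 3 CCAAT matches, the Top2a promoter 2 and 6, and the Pcna promoter 0 and 1. A promoter was listed for 26 of the 32 members, and Ccna2, Ccnd1, Ccnd2, Ccne2, Aurkb and Mcm4 had none listed. CHR was present in 17 of these 26 (65.4%), against 30.6% of 27025 mouse genes with promoters of the same length. CCAAT was present in 20 of 26 (76.9%), against 41.1% of these genes. An E2F motif (TTTCGCGC, TTTGGCGC, TTTCCCGC or TTTGGCGG, on either strand) was present in 6 of 26 (23.1%), namely Mcm3, Mcm5, Mcm6, Mcm7, Cdc6 and Cdk1, against 2.70% of these genes. Mcm7 had 2 promoters listed, with 2 and 0 E2F matches, and was counted as holding the motif. Each motif was counted by itself, and matches of different motifs may share a base at their edges. A match is a description of these letters and not a measured binding site.

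Wells held 71720 to 767167 counts with a median of 342561, and 17 wells, 13 KO and 4 WT, held under 150000. Counts of a plate's wells were added up per time class: the 12 wells of time 0 and, for each ligand, early for 0.5 and 1 h, middle for 1.5 and 2 h, and late for 2.5 to 4 h. Levels are stated in CPM, that is, a gene's count per library total put on one common scale, for replicate 1 and then replicate 2. The members together took 0.181% to 0.194% of a plate's counts. The 3′ tag counts are not scaled by length, so levels were compared within a gene only. Myd88 had 14.5 and 17.0 CPM in KO plates at time 0, against 30.4 and 35.0 CPM in WT plates, a log2 difference of -1.08 (SE 0.63) that did not pass edgeR's quasi-likelihood test with Benjamini-Hochberg adjustment (adjusted p = 1.0). The deleted part of the gene is not given in the sources used here, so its 3′ tag does not check the genotype. The sum over 9 macrophage markers was 3319 to 4551 CPM at time 0 and late, while T and NK cell markers summed to at most 5.39 CPM, B cell markers to at most 12.5 CPM, dendritic cell markers to at most 33.1 CPM and fibroblast markers to at most 6.67 CPM, and Cd3g, Hba-a1 and Col3a1 were at 0. Neutrophil markers summed to 82.2 to 270 CPM. In bulk wells, fewer cycling cells and less RNA of a gene per cell cannot be told apart. The fit scales libraries by TMM, which sets late log2 changes higher than library totals do, by 0.33 after LPS in WT cells and by -0.03 to 0.34 over all ligands and both genotypes. The late sum over the 28 members other than G1 cyclins is therefore shown on both scales. Other sums are on library totals unless stated.

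At time 0 no member was called different between KO and WT plates. In edgeR's quasi-likelihood test with Benjamini-Hochberg adjustment 0 of 32 members were called, 0 had an unadjusted p under 0.05, and DESeq2 called 0 as well. Over all 10562 genes tested, 0.275% were called lower in KO and 0.0% higher. Ccnd2, a D-type cyclin, had 191 and 160 CPM in KO plates, against 196 and 174 CPM in WT plates. Ccnd1, the other D-type cyclin in the set, had 296 and 284 CPM in KO plates and 338 and 265 CPM in WT plates. These levels overlapped between genotypes. Mki67, which coats mitotic chromosomes, had 145 and 138 CPM in KO plates, against 168 and 174 CPM in WT plates, and Pcna, the sliding clamp of DNA polymerase, had 287 and 334 CPM in KO plates, against 247 and 269 CPM in WT plates. Mcm6 had 124 and 106 CPM in KO plates, against 95.3 and 87.8 CPM in WT plates. Mcm5 had 78.4 and 80.5 CPM in KO plates, against 60.8 and 67.2 CPM in WT plates. The KO plates were thus the higher ones for Pcna, Mcm6 and Mcm5 and the lower ones for Mki67, in each case without overlap. Rrm1, the large subunit of ribonucleotide reductase, had 36.6 and 42.1 CPM in KO plates, against 50.6 and 44.2 CPM in WT plates, again without overlap. In all, both KO plates lay above both WT plates for 13 of the 32 members (40.6%, against 26.4% of all genes tested) and below them for 2 (6.25%, against 21.3%), so plates that do not overlap were common among all genes. Top2a, the topoisomerase that untangles chromosomes, had 86.9 and 82.0 CPM in KO plates, against 84.3 and 87.1 CPM in WT plates. The sum over the 28 members other than G1 cyclins was 1111 and 1169 CPM in KO plates and 1002 and 1040 CPM in WT plates. The median log2 difference of these 28 genes was 0.24, beside 0.02 over all genes.

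Late after the ligands, calls among the members were few and all fell on the D-type cyclins, in opposite directions. Ccnd1 fell in WT cells with LPS and MDP/LPS and in KO cells with Poly(I:C). Ccnd2 rose in both genotypes with LPS, MDP/LPS, Zymosan, Poly(I:C) and SeV. None of the 30 other members was called late in either genotype. All ligands of a genotype share its time 0 wells. In edgeR's quasi-likelihood test at an adjusted p under 0.05, among all pairs of 32 members and 12 ligands 1 was called lower and 5 higher in KO cells, and 2 were called lower and 5 higher in WT cells. Over all genes and ligands 0.593% of late tests were called lower and 1.58% higher in KO cells, and 0.686% lower and 2.09% higher in WT cells, so the members' shares lay under those of all genes. At an unadjusted p under 0.05 there were 11 lower and 9 higher tests in KO cells and 16 lower and 11 higher in WT cells. DESeq2 called 4 lower in KO cells, with Aurka and Mcm5 after Poly(I:C) and Ccna2 after LPS beside Ccnd1, and 6 lower in WT cells, all of them Ccnd1.

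**Figure D1:**
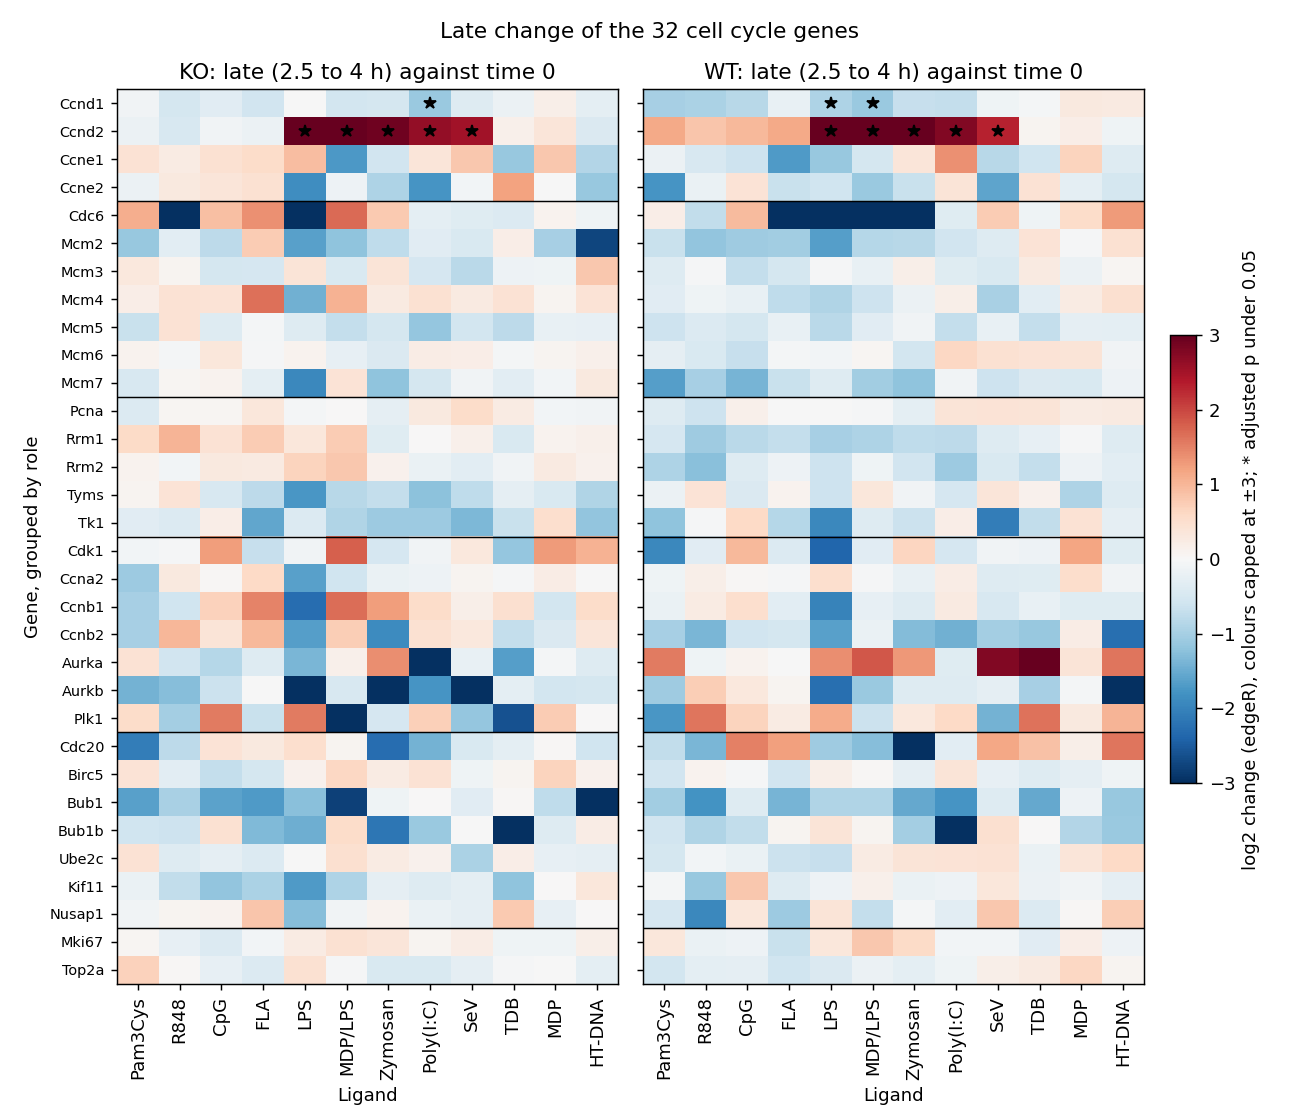
Late log2 change from time 0 of the 32 members (rows, by role) for 12 ligands (columns), KO left and WT right, with colours capped at 3 in either direction and stars where the edgeR adjusted p was under 0.05. Stars stand only in the rows of Ccnd2, higher with 5 ligands in each genotype, and Ccnd1, lower with Poly(I:C) in KO and with LPS and MDP/LPS in WT.

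Ccnd2 lies on chromosome 6 of mm10 at 127125162 to 127152193, minus strand. Late after LPS it had 1862 and 1702 CPM in KO plates and 3176 and 2468 CPM in WT plates, against 191 and 160 CPM in KO plates and 196 and 174 CPM in WT plates at time 0. Late after MDP/LPS it had 2206 and 1028 CPM in KO plates and 2901 and 2963 CPM in WT plates. The late LPS level was 11.9 times time 0 in KO cells (log2 change 3.57, SE 0.40, edgeR quasi-likelihood test with Benjamini-Hochberg adjusted p = 2.7e-11) and 19.1 times in WT cells (4.26, SE 0.41, adjusted p = 7.8e-14). Every late LPS plate sum lay far above every time 0 sum. The late MDP/LPS change was 3.44 (SE 0.39) on the log2 scale in KO cells and 4.33 (SE 0.41) in WT cells.

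The rise was present with ligands of other receptors too. Late after Zymosan Ccnd2 had 1118 and 1224 CPM in KO plates and 1338 and 1459 CPM in WT plates, with log2 changes of 2.93 (SE 0.39) in KO and 3.17 (SE 0.39) in WT cells. Late after Poly(I:C) it had 1293 and 670 CPM in KO plates and 892 and 1346 CPM in WT plates, with log2 changes of 2.63 (SE 0.38) in KO and 2.79 (SE 0.38) in WT cells. Late after SeV it had 876 and 784 CPM in KO plates and 747 and 743 CPM in WT plates, with log2 changes of 2.52 (SE 0.38) in KO and 2.31 (SE 0.38) in WT cells. The genotypes overlapped with Poly(I:C), while each WT plate lay above both KO plates with Zymosan and below both with SeV. The 5 KO calls held without either plate of either genotype. The WT call for Poly(I:C) was lost without WT replicate 2 (edgeR adjusted p = 0.106) and that for SeV without WT replicate 1 (0.195) or 2 (0.268).

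With Pam3Cys, R848, CpG and FLA the plates of the genotypes separated, but no change was called in either. Late after Pam3Cys Ccnd2 had 179 and 136 CPM in KO plates, against 358 and 407 CPM in WT plates. Late after R848 it had 131 and 108 CPM in KO plates, against 297 and 298 CPM in WT plates. Late after CpG it had 165 and 159 CPM in KO plates, against 228 and 412 CPM in WT plates, and late after FLA 72.5 and 216 CPM in KO plates, against 433 and 331 CPM in WT plates. Each WT plate lay above both KO plates with all 4 of these ligands. The WT log2 changes from time 0 were 1.15, 0.83, 0.98 and 1.13 in that order of ligands, with edgeR adjusted p of 0.077, 0.39, 0.23 and 0.199 (quasi-likelihood test, Benjamini-Hochberg), and the KO changes were -0.19, -0.48, -0.10 and -0.18. The difference of the log2 changes, KO minus WT, was -1.33 for Pam3Cys with a 95% interval of -2.35 to -0.31, -1.31 for R848 (-2.35 to -0.26), -1.30 for FLA (-2.34 to -0.27) and -1.07 for CpG (-2.09 to -0.05). None of these passed adjustment over all genes (edgeR adjusted p = 0.531 for Pam3Cys and 0.55 for R848). For LPS the difference was -0.68 with an interval of -1.68 to 0.32, and for SeV 0.21 with an interval of -0.79 to 1.21. With TDB, MDP and HT-DNA the late levels were 99.9 to 237 CPM in KO plates and 146 to 243 CPM in WT plates.

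**Figure D2:**
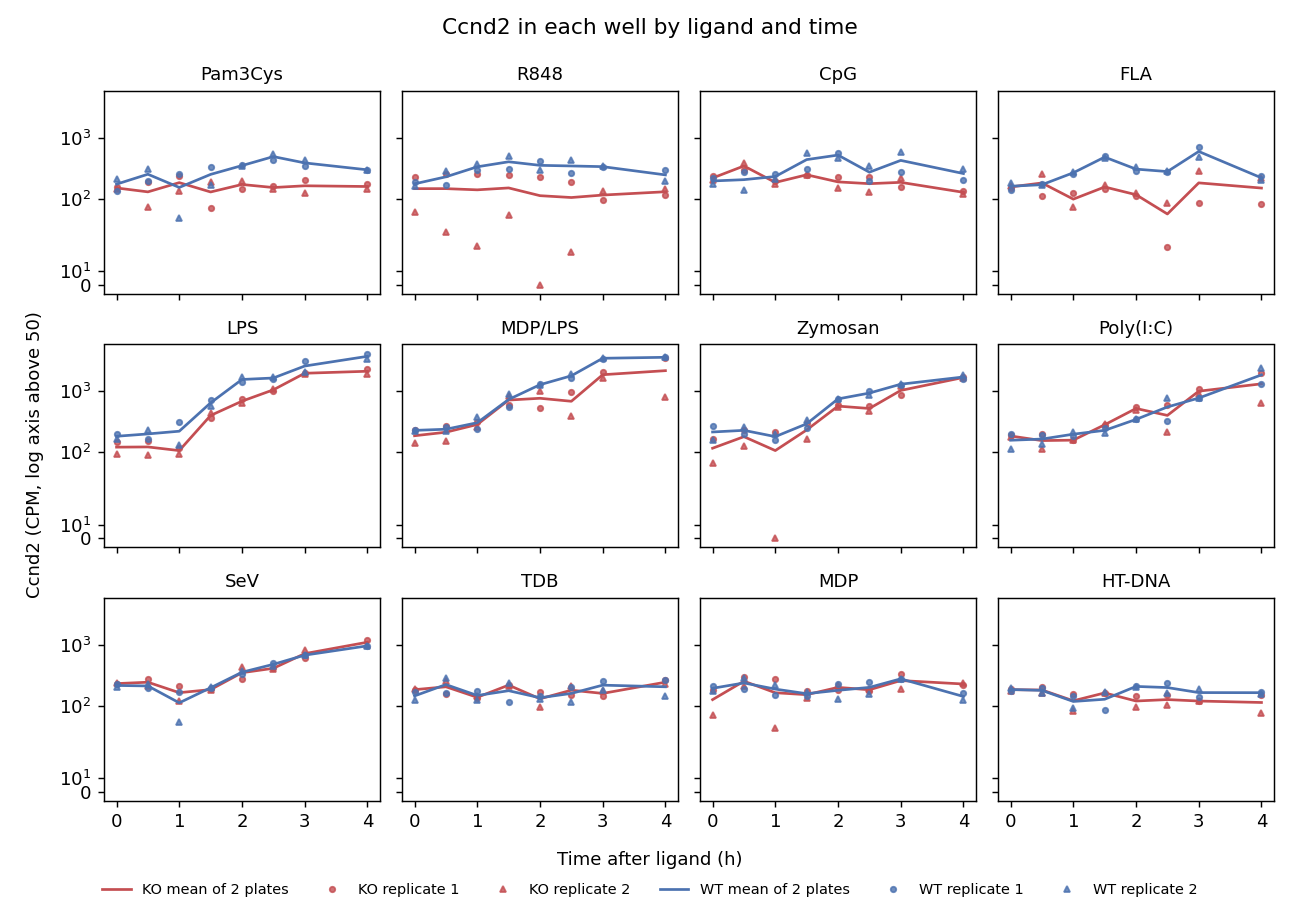
Ccnd2 in CPM (linear near 0 and logarithmic above) at 8 times after each ligand, with 1 point per plate and a line through the plate means, for KO and WT. Both genotypes climbed with LPS, MDP/LPS, Zymosan, Poly(I:C) and SeV, to 2306 and 1954 CPM in KO plates and 4136 and 3358 CPM in WT plates at 4 h of LPS.

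Ccnd2 stood above time 0 before the late class. After 1.5 h of LPS the wells held 364 and 436 CPM in KO cells and 723 and 567 CPM in WT cells, and after 2 h 743 and 631 CPM in KO cells and 1410 and 1710 CPM in WT cells. At both times each WT well was above each KO well. In the middle class Ccnd2 rose in KO cells with LPS (log2 change 1.78), MDP/LPS (2.19) and Zymosan (1.46), and in WT cells with LPS (2.78), MDP/LPS (2.66), Zymosan (1.66) and CpG (1.46), by edgeR's quasi-likelihood test. The 4 WT calls were lost without either WT plate, that for CpG also against own time 0 wells and on library totals. Of the KO calls, those for LPS and Zymosan were lost without either WT plate, and that for Zymosan also on library totals. Some plates disagreed at 4 h: after MDP/LPS the KO wells held 3545 and 813 CPM and the WT wells 3614 and 3611 CPM, and after Poly(I:C) the KO wells held 1998 and 649 CPM and the WT wells 1337 and 2378 CPM.

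Ccnd1 lies on chromosome 7 of mm10 at 144929931 to 144939925, minus strand, and its calls were all lower. Late after LPS it had 292 and 201 CPM in KO plates and 125 and 126 CPM in WT plates, against 296 and 284 CPM in KO and 338 and 265 CPM in WT plates at time 0. Late after MDP/LPS it had 203 and 131 CPM in KO plates and 123 and 95.8 CPM in WT plates. In WT cells the log2 change was -0.94 (SE 0.31) with LPS and -1.12 (SE 0.31) with MDP/LPS (edgeR quasi-likelihood test, Benjamini-Hochberg adjusted p = 0.0478 and 0.0101). In KO cells it was -0.00 with LPS and -0.54 with MDP/LPS, neither called. The WT calls depended on both WT plates, with an adjusted p of 1.0 for LPS without WT replicate 1 and 0.706 without WT replicate 2, and 0.653 and 0.749 for MDP/LPS. Against the ligand's own time 0 wells both missed the threshold too (0.249 and 0.451), and the LPS call was also lost with no filter on low counts (0.06) and at 4 h alone (0.122).

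In KO cells Ccnd1 fell with Poly(I:C). Late levels were 109 and 133 CPM in KO plates and 119 and 203 CPM in WT plates. The log2 change was -1.10 (SE 0.31) in KO cells (edgeR quasi-likelihood test, Benjamini-Hochberg adjusted p = 0.0092) and -0.71 in WT cells (adjusted p = 0.215). The KO call was lost without KO replicate 1 (0.113), WT replicate 1 (0.068) or WT replicate 2 (0.071), and against the ligand's own time 0 wells (0.227). The difference between the genotypes was -0.40 with a 95% interval of -1.24 to 0.44.

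Pam3Cys, R848 and CpG act on Toll-like receptors that use Myd88 and not the adaptor Trif, and with them WT Ccnd1 lay near the LPS level without passing the threshold. Late after Pam3Cys it had 277 and 271 CPM in KO plates, against 135 and 146 CPM in WT plates. Late after R848 it had 235 and 146 CPM in KO plates, against 117 and 164 CPM in WT plates. Late after CpG it had 259 and 197 CPM in KO plates, against 171 and 128 CPM in WT plates. The genotypes overlapped with R848 and did not with Pam3Cys and CpG. The WT log2 changes were -1.0, -0.95 and -0.82 (edgeR adjusted p = 0.051, 0.072 and 0.217), and the KO changes -0.11, -0.52 and -0.33. On library totals in place of TMM the WT changes with Pam3Cys and R848 were both -1.10 and were called (adjusted p = 0.0326 and 0.0308), beside LPS at -1.26 and MDP/LPS at -1.46. The difference KO minus WT was 0.89 for Pam3Cys (95% interval 0.05 to 1.72) and 0.93 for LPS (0.08 to 1.78), and neither passed adjustment (edgeR adjusted p = 0.911 and 1.0). For MDP/LPS it was 0.57 (-0.28 to 1.43), for R848 0.43 (-0.42 to 1.28) and for CpG 0.49 (-0.35 to 1.33). With Zymosan late Ccnd1 was 151 and 199 CPM in KO plates and 173 and 141 CPM in WT plates (log2 change -0.54 in KO and -0.69 in WT, neither called), and with SeV 150 and 217 CPM in KO plates and 217 and 228 CPM in WT plates. With FLA, TDB, MDP and HT-DNA the late levels were 143 to 326 CPM in KO plates and 242 to 394 CPM in WT plates.

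**Figure D3:**
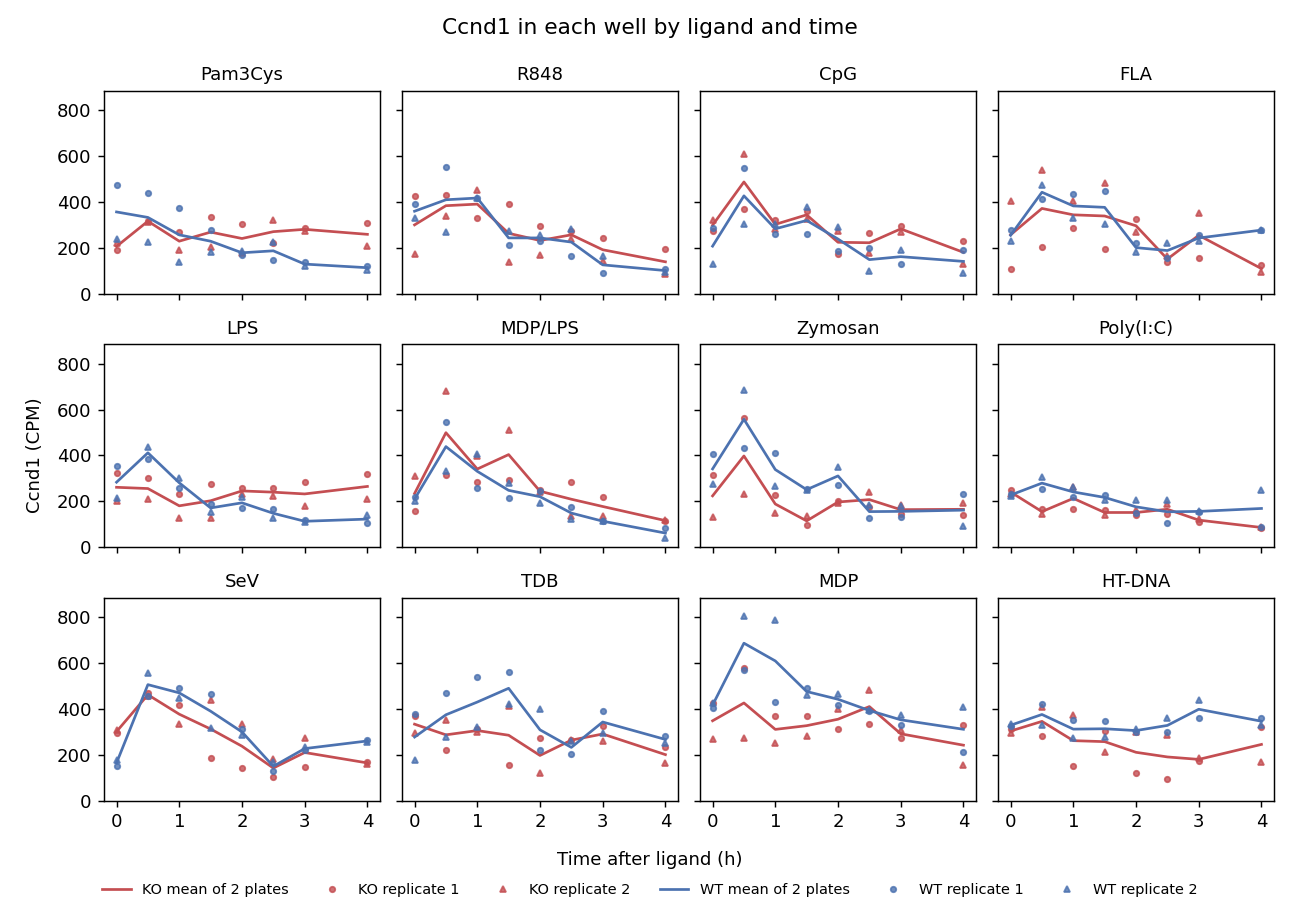
Ccnd1 in CPM at 8 times after each ligand, with 1 point per plate and a line through the plate means, for KO and WT. At 4 h of Pam3Cys the KO wells held 309 and 209 CPM and the WT wells 122 and 105 CPM.

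As no untreated course is analysed here, late wells of each ligand were also set against late MDP wells of the same genotype. MDP is sensed by Nod2 rather than by a Toll-like receptor, and it is a ligand, not an untreated control. Of 352 member-by-ligand tests, 1 was called lower and 5 higher in KO cells, and 6 were called lower and 5 higher in WT cells, beside 0.441% lower and 1.15% higher in KO cells and 0.405% lower and 1.67% higher in WT cells over all genes. At an unadjusted p under 0.05 there were 15 lower and 10 higher in KO cells and 30 lower and 11 higher in WT cells. The 6 lower calls in WT cells were all Ccnd1, with Pam3Cys (log2 difference -1.29), R848 (-1.24), CpG (-1.11), LPS (-1.23), MDP/LPS (-1.41) and Poly(I:C) (-1.0), and each was lost without either WT plate. Those with CpG and Poly(I:C) were also lost with no filter on low counts, and those with CpG, LPS and Poly(I:C) at 4 h alone. Against time 0 the WT log2 changes of Ccnd1 were smaller, at -0.94 with LPS and -1.12 with MDP/LPS. WT Ccnd1 late after MDP thus lay above time 0, which adds to the differences against MDP. In KO cells the lower call was Ccnd1 with Poly(I:C) (-1.28, edgeR adjusted p = 0.0025), which held under every alternative run. The higher calls were Ccnd2 with LPS, MDP/LPS, Zymosan, Poly(I:C) and SeV in both genotypes, with log2 differences of 2.16 to 3.21 in KO cells and 2.12 to 4.13 in WT cells. In WT cells those for Zymosan and Poly(I:C) were lost without WT replicate 2 and that for SeV without either WT plate.

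The E-type cyclins Ccne1 and Ccne2, which drive entry into S phase with CDK2, were too low for a comparison. Ccne1 had 0 to 15.5 CPM late in KO plates and 0 to 15.0 CPM in WT plates, and Ccne2 had 0 to 28.3 CPM in KO plates and 2.13 to 17.4 CPM in WT plates.

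Among the 28 other members more late changes were below 0 in WT than in KO cells, and no single member was called in either. Of 336 late tests, 10 were lower and 4 higher at an unadjusted p under 0.05 in KO cells and 9 lower and 2 higher in WT cells, with 0 calls by edgeR in either genotype. DESeq2 called 0 of these in WT cells and, in KO cells, the 3 named above. The log2 change was below 0 in 196 of 336 tests in KO cells and 233 of 336 in WT cells. Over all genes the share below 0 was 51.1% to 56.5% by ligand in KO cells and 49.5% to 57.7% in WT cells. For Pam3Cys the median over the 28 genes was -0.09 in KO cells and -0.54 in WT cells, for R848 -0.17 in KO and -0.38 in WT, and for FLA -0.07 in KO and -0.46 in WT. For LPS it was -0.83 in KO cells and -0.62 in WT cells, and for Zymosan -0.32 in KO and -0.30 in WT. For MDP it was -0.07 in KO cells and 0.11 in WT cells. Over all genes these medians lay between -0.13 and 0.01. Both plates were lower than their time 0 sums for 11 of the 28 genes with Pam3Cys in KO cells and for 20 in WT cells (39.3% in KO and 71.4% in WT, against 29.8% and 36.5% of all genes tested). With LPS this held for 14 in KO and 16 in WT cells (50.0% and 57.1%, against 38.1% and 40.2% of all genes), and with MDP in WT cells for 7 (25.0%, against 25.8% of all genes).

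The sum over these 28 genes was set against time 0 of the same plate, without a test. Late after Pam3Cys the sum was 950 and 1248 CPM in KO plates, or 0.855 and 1.07 times time 0, and 761 and 792 CPM in WT plates, or 0.760 and 0.762 times time 0. Late after R848 it was 1066 and 1220 CPM in KO plates, 0.960 and 1.04 times time 0, and 728 and 673 CPM in WT plates, 0.727 and 0.647 times time 0. The R848 sum of KO replicate 2 was the shallowest late sum, with 314684 counts in all. With FLA the ratios were 1.20 and 0.942 in KO plates and 0.778 and 0.743 in WT plates. With these 3 ligands both WT plates lay under both KO plates, also when CPM was divided by the TMM factor (Pam3Cys 0.836 and 1.05 in KO, 0.814 and 0.813 in WT; R848 0.964 and 1.15 in KO, 0.813 and 0.706 in WT; FLA 1.28 and 0.961 in KO, 0.833 and 0.780 in WT). With CpG the ratios were 0.958 and 0.988 in KO plates and 0.903 and 0.690 in WT plates, and the genotypes overlapped after TMM scaling, where WT replicate 1 was at 1.07.

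With LPS and Zymosan the genotypes lay closer. The LPS ratios were 0.890 and 0.699 in KO plates and 0.647 and 0.788 in WT plates, and after TMM scaling 1.04 and 0.824 in KO and 0.830 and 0.964 in WT. The Zymosan ratios were 0.796 and 0.748 in KO plates and 0.801 and 0.742 in WT plates, and after TMM scaling 0.902 and 0.860 in KO and 0.975 and 0.861 in WT. Zymosan thus lay under time 0 in all 4 plates on both scales. The MDP/LPS ratios were 0.964 and 0.859 in KO plates and 0.804 and 0.842 in WT plates on library totals, but 1.13 and 1.03 in KO and 1.02 and 1.07 in WT after TMM scaling, so the side of time 0 on which they fell depended on the scale. The same held for WT plates with Poly(I:C), at 0.869 and 0.926 on totals and 1.03 in each plate after scaling. With the 4 G1 cyclins counted as well, the late LPS sum was 1.96 and 1.68 times time 0 in KO plates and 2.56 and 2.28 times in WT plates, on library totals. MDP gave 0.920 and 0.988 in KO plates and 1.09 and 1.13 in WT plates. Late neutrophil marker sums ran from 82.2 to 270 CPM in KO and from 92.5 to 232 CPM in WT plates. At time 0 they were 134 to 176 CPM in KO and 166 to 214 CPM in WT plates. Dendritic cell markers summed to at most 25.4 CPM in KO and 33.1 CPM in WT plates late, against at most 14.0 CPM in KO and 14.5 CPM in WT plates at time 0. The late ranges cover 12 ligands on 2 plates, while time 0 has 1 deeper sum of 12 wells per plate. More and shallower sums give a wider range by themselves, so these ranges do not show a change of the markers. The part of these markers in the ratios was not tested.

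**Figure D4:**
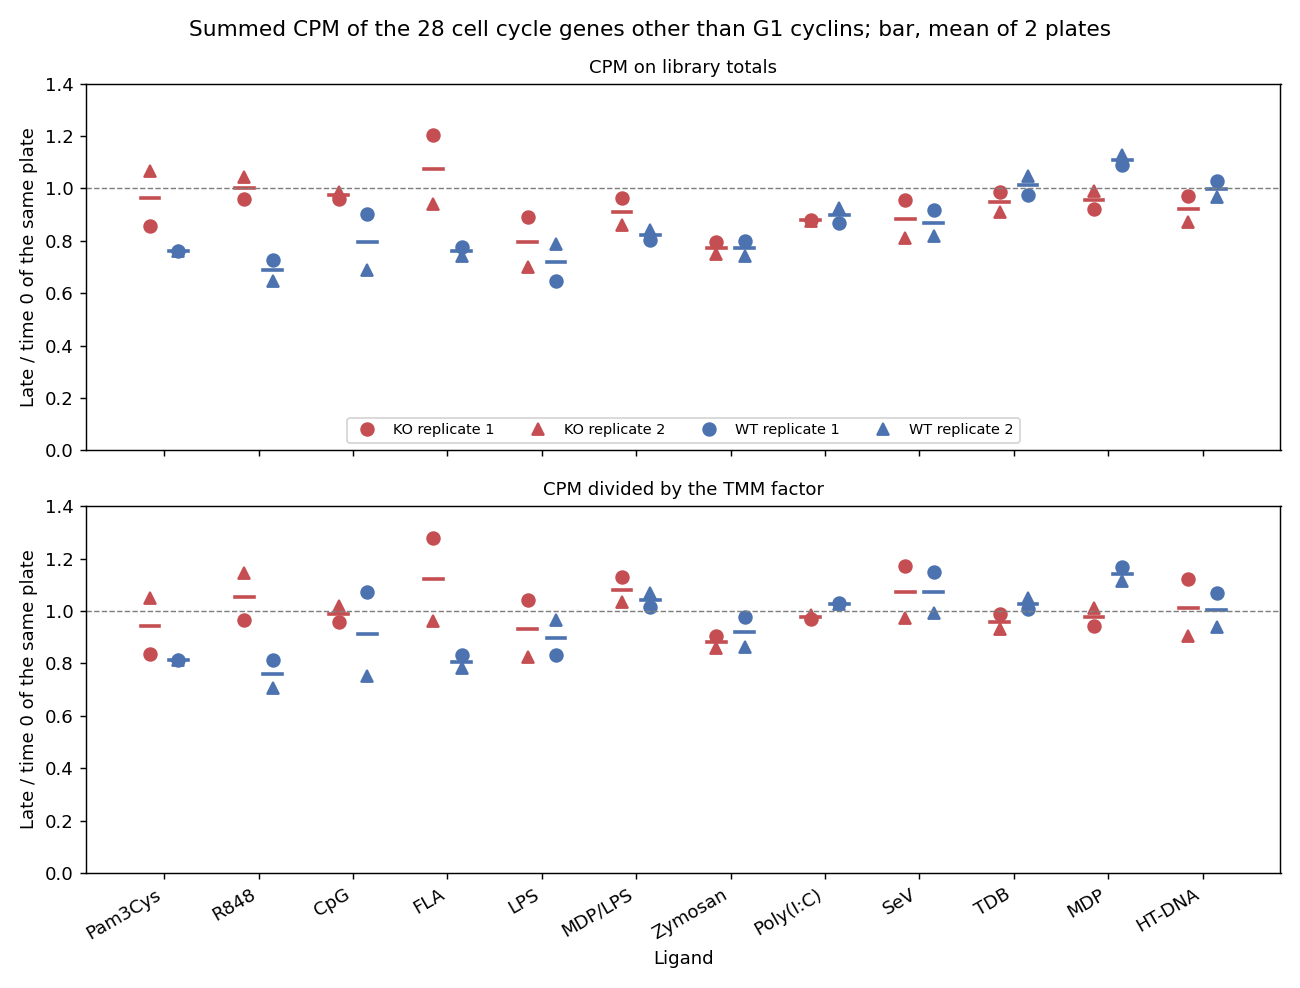
Sum over the 28 members other than G1 cyclins, late divided by time 0 of the same plate, for 12 ligands, with 1 point per plate for KO and WT; the panels use CPM on library totals and CPM divided by the TMM factor. WT plates lie under KO plates with Pam3Cys, R848 and FLA on both scales, and the TMM scale moves LPS, MDP/LPS, Poly(I:C) and SeV toward or past 1.

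By role, replication licensing genes had the highest share of late changes below 0 in WT cells. Cdc6, which loads the helicase, and the helicase subunits Mcm2 to Mcm7 had log2 changes below 0 in 48 of 84 late tests in KO cells and 66 of 84 in WT cells. Their sum was 304 and 284 CPM in KO plates and 241 and 252 CPM in WT plates at time 0. Late after Pam3Cys it was 0.774 and 1.11 times time 0 in KO plates and 0.686 and 0.651 times in WT plates. Late after R848 it was 1.01 and 1.05 times in KO plates and 0.668 and 0.670 times in WT plates, and late after CpG 0.960 and 1.03 times in KO plates and 0.622 and 0.496 times in WT plates. With R848 and CpG both KO plates stayed near time 0 and both WT plates lay well under it. Late after LPS it was 0.889 and 0.543 times in KO plates and 0.591 and 0.621 times in WT plates, and late after Zymosan 0.728 and 0.664 times in KO plates and 0.776 and 0.534 times in WT plates. After TMM scaling the WT ratios were 0.759 and 0.760 with LPS, 0.740 and 0.541 with CpG, 0.747 and 0.731 for R848 and 0.735 and 0.694 for Pam3Cys, all under time 0. The scaled KO ratios were 1.04 and 0.640 with LPS and 0.958 and 1.06 with CpG. With R848 they were 1.02 and 1.15, and with Pam3Cys 0.756 and 1.09.

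Mcm6 had the most counts of the licensing genes. Late after CpG it had 147.6 and 139 CPM in KO plates, against 58.8 and 41.7 CPM in WT plates. Late after R848 it had 115 and 92.2 CPM in KO plates, against 62.4 and 58.3 CPM in WT plates, and late after Pam3Cys 121 and 132 CPM in KO plates, against 68.7 and 73.4 CPM in WT plates. The genotypes did not overlap in any of these, with KO the higher as at time 0, and the WT log2 change with CpG was -0.69, not called. Mcm5 late after Poly(I:C) had 35.7 and 28.2 CPM in KO plates and 34.7 and 33.4 CPM in WT plates, with a KO log2 change of -1.15 (edgeR adjusted p = 0.11). Mcm7 late after Pam3Cys had 11.9 and 25.4 CPM in KO plates, against 5.03 and 8.55 CPM in WT plates, with a WT log2 change of -1.66 (edgeR adjusted p = 0.28). Mcm2, Mcm3, Mcm4 and Cdc6 averaged 16.6, 36.4, 19.1 and 3.82 CPM over all plate sums, and none was called.

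DNA synthesis genes were likewise below time 0 more often in WT than in KO cells, a count given without a test. The log2 change was below 0 in 31 of 60 late tests in KO cells and 46 of 60 in WT cells. Pcna late after R848 had 266 and 356 CPM in KO plates, against 149 and 154 CPM in WT plates, and late after Pam3Cys 217 and 261 CPM in KO plates, against 179 and 187 CPM in WT plates. The WT log2 change with R848 was -0.63 (edgeR adjusted p = 0.33). Rrm1 late after R848 had 62.3 and 95.3 CPM in KO plates, against 25.8 and 14.8 CPM in WT plates, and the difference of its log2 changes, KO minus WT, was 2.11 with a 95% interval of 0.71 to 3.51 (edgeR quasi-likelihood test, Benjamini-Hochberg adjusted p = 0.275). Rrm2, the small reductase subunit, Tyms, which makes thymidylate, and Tk1, which salvages thymidine, averaged 27.5, 27.1 and 11.1 CPM and were not called. The DNA synthesis sum late after R848 was 1.03 and 1.16 times time 0 in KO plates and 0.675 and 0.546 times in WT plates. Late after CpG it was 1.02 and 1.07 times in KO plates and 1.06 and 0.699 times in WT plates. With Zymosan it lay under time 0 in both genotypes, at 0.807 and 0.631 times in KO and 0.713 and 0.605 times in WT plates. These ratios are on library totals.

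Genes of G2 and mitosis are given as counts without a test, to be read beside the shares of all genes below 0 given above by ligand. Of the S, G2 and M cyclins and kinases, 50 of 84 late tests were below 0 in KO cells and 51 in WT cells, and of the spindle, checkpoint and exit genes, 53 of 84 in KO cells and 55 in WT cells. For Mki67 and Top2a together it was 14 of 24 in KO cells and 15 in WT cells, and for the other G2/M genes counted further on 409 of 660 in KO cells and 451 in WT cells. The sum over the S, G2 and M cyclins and kinases is given on library totals, without a test. Late after LPS it was 0.276 and 0.494 times time 0 in KO plates and 0.694 and 0.671 times in WT plates. The KO sums after LPS held 17 and 32 counts. Late after Pam3Cys the ratios were 0.692 and 0.552 in KO plates and 0.745 and 0.631 in WT plates. With FLA they were 2.02 and 0.988 in KO plates and 0.865 and 0.796 in WT plates. Ccna2, the cyclin of S and G2, late after LPS had 12.4 and 11.8 CPM in KO plates, against 35.1 and 34.5 CPM in WT plates, with a KO log2 change of -1.62 (edgeR adjusted p = 0.11) and a difference of -2.13 that did not pass adjustment (adjusted p = 1.0). Cdk1, the kinase of mitotic entry, had its lowest WT p with LPS, not called, from 3 late counts over both plates. The mitotic cyclins Ccnb1 and Ccnb2, the kinases Plk1, Aurka and Aurkb, the checkpoint kinases Bub1 and Bub1b, Cdc20 and Ube2c, which serve the ubiquitin ligase of mitotic exit, the chromosomal passenger protein Birc5, and the spindle proteins Kif11 and Nusap1 averaged 3.85 to 23.9 CPM, and most of them had at least 1 plate sum without a count.

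The proliferation markers differed from each other. Top2a late after Pam3Cys had 110 and 167 CPM in KO plates, against 46.1 and 63.4 CPM in WT plates, and late after LPS 100 and 96.4 CPM in KO plates, against 46.0 and 55.0 CPM in WT plates. Its difference with Pam3Cys was 1.23 on the log2 scale (edgeR adjusted p = 0.897). Late Mki67 ran from 81.1 to 193 CPM over KO plates and from 87.9 to 244 CPM over WT plates, and FLA had 120 and 137 CPM in KO plates and 87.9 and 115 CPM in WT plates. Late after Pam3Cys Mki67 had 109 and 193 CPM in KO plates and 193 and 212 CPM in WT plates, so the WT plates that were low in Top2a were not low in Mki67.

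Earlier than 2.5 h no member was called lower in either genotype. Early, 0 member tests were called in KO and 0 in WT cells by edgeR and by DESeq2 (unadjusted edgeR p under 0.05 for 4 lower and 8 higher in KO, and 0 lower and 15 higher in WT), beside 0.0197% lower and 0.164% higher in KO cells and 0.00237% lower and 0.274% higher in WT cells over all genes. The early sum over the 28 genes was 0.941 to 1.43 times time 0 over KO plates and 0.963 to 1.49 times over WT plates, on library totals. In the middle class 5 tests were called higher in KO cells and 7 in WT cells, none lower, beside 0.211% lower and 0.6% higher in KO cells and 0.133% lower and 0.806% higher in WT cells over all genes. Beside Ccnd2 these were Mki67, with LPS (log2 change 1.12) and Zymosan (1.14) in KO cells and with Pam3Cys (1.30), LPS (1.33) and Zymosan (1.43) in WT cells. Middle Mki67 levels after Zymosan were 342 and 224 CPM in KO plates and 414 and 419 CPM in WT plates, and after Pam3Cys 277 and 172 CPM in KO plates and 359 and 424 CPM in WT plates. At 1.5 h of Zymosan the wells held 572 and 294 CPM in KO cells and 552 and 522 CPM in WT cells, and by 4 h of LPS the WT wells held 91.6 and 189 CPM. The WT Mki67 calls were lost without either WT plate, those for LPS and Zymosan also against own time 0 wells, and the KO calls without KO replicate 1 or either WT plate, with no filter on low counts, against own time 0 wells and on library totals. Time 0 wells themselves ran from 19.1 to 258 CPM in KO (median 154, 24 wells) and from 48.3 to 283 CPM in WT (median 176, 24 wells), and those under the FLA label were low on all 4 plates, at 48.3 and 19.1 CPM in KO and 58.5 and 48.3 CPM in WT. Among the middle differences between genotypes 0 were called by edgeR or DESeq2 (8 lower and 5 higher at an unadjusted p under 0.05, 0.0426% lower and 0.00158% higher over all genes).

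**Figure D5:**
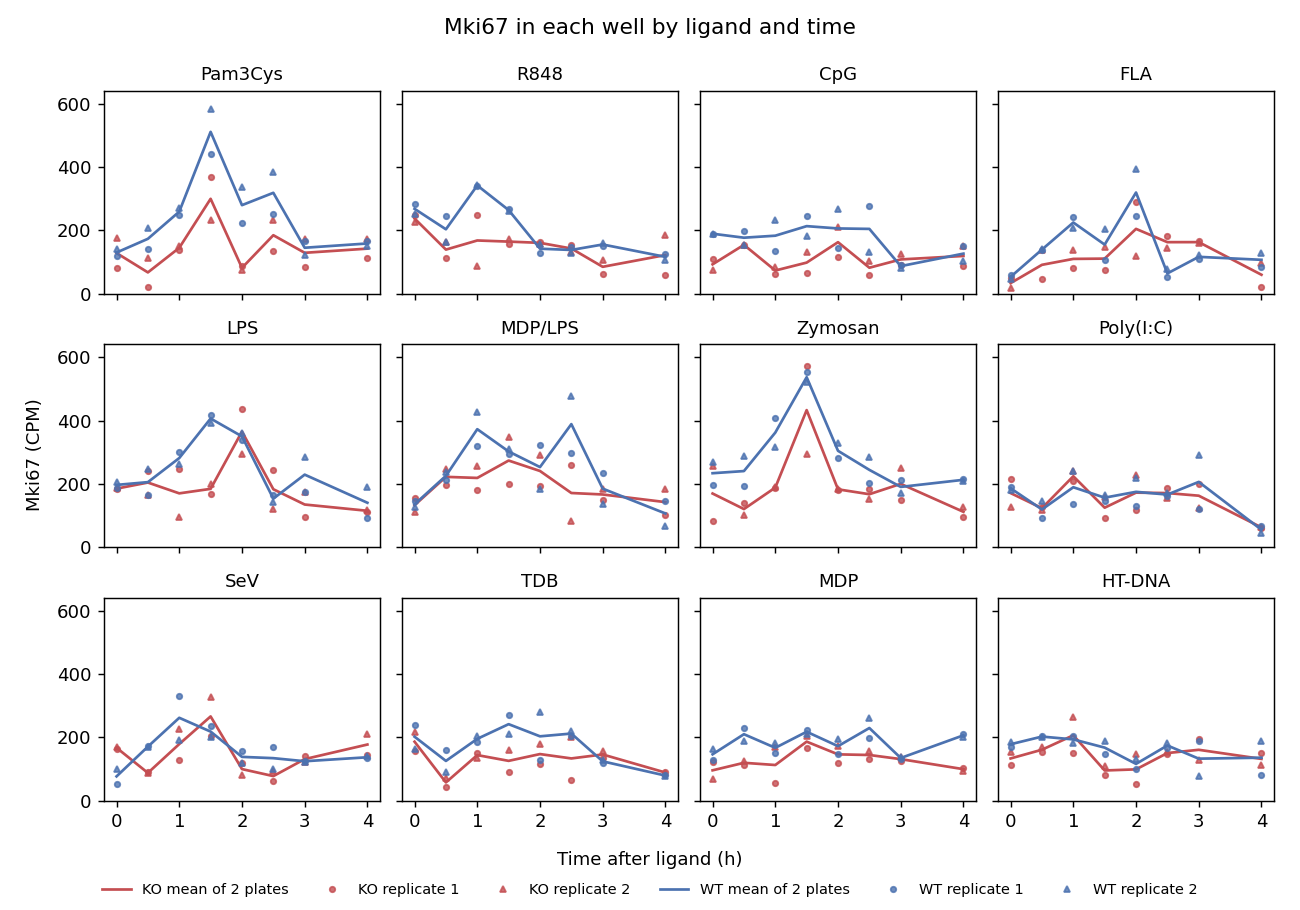
Mki67 in CPM at 8 times after each ligand, with 1 point per plate and a line through the plate means, for KO and WT. The highest wells fall at 1.5 h, as after Zymosan with 572 and 294 CPM in KO and 552 and 522 CPM in WT, and time 0 wells vary between ligand labels.

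With the 4 h wells alone in place of the late class, more members were called lower in WT cells, beyond the cyclins, while at an unadjusted p under 0.05 as many tests were lower in KO as in WT cells (37 lower and 7 higher in KO, 37 lower and 6 higher in WT). In edgeR's quasi-likelihood test with Benjamini-Hochberg adjustment 1 was called lower and 5 higher in KO cells, and 9 were called lower and 5 higher in WT cells, beside 1.2% lower and 1.45% higher in KO cells and 0.859% lower and 1.84% higher in WT cells over all genes. Top2a at 4 h of LPS had 112 and 81.0 CPM in KO wells, against 12.8 and 11.1 CPM in WT wells. Its log2 change was 0.37 (SE 0.50) in KO cells, not called, and -2.50 (SE 0.61, adjusted p = 0.0025) in WT cells. Both WT wells lay far under both KO wells, and the difference KO minus WT of 2.88 (SE 0.80) did not pass adjustment (edgeR adjusted p = 0.28). Single time 0 wells of Top2a ran from 16.1 to 143 CPM in KO (median 76.8) and from 0 to 139 CPM in WT (median 83.9). The WT wells at 4 h of LPS thus lay within the range of single time 0 wells. Mcm6 at 4 h of CpG had 128 and 126 CPM in KO wells, against 44.4 and 8.92 CPM in WT wells, with a WT log2 change of -1.93 (SE 0.51, edgeR adjusted p = 0.0191) and a difference of 2.08 (SE 0.66, adjusted p = 0.197). Mki67 at 4 h of Poly(I:C) had 62.4 and 62.9 CPM in KO wells and 65.8 and 45.1 CPM in WT wells, with log2 changes of -1.03 (SE 0.40, edgeR adjusted p = 0.0786) in KO and -1.36 (SE 0.39, adjusted p = 0.0157) in WT cells. Here the genotypes overlapped. The other lower calls at 4 h in WT cells were Ccnd1 with Pam3Cys, R848 and MDP/LPS, Mcm3 with Poly(I:C), and Kif11 with R848 and Mcm7 with MDP/LPS, whose WT wells held 0 counts. In KO cells the lower call was Ccnd1 with Poly(I:C), at -1.62 (SE 0.39). Each 4 h value rests on 1 well per plate. Of the differences between genotypes at 4 h edgeR called 0 (9 lower and 10 higher at an unadjusted p under 0.05, DESeq2 not run), beside 0.0924% lower and 0.0169% higher over all genes.

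Whether any late change needed Myd88 was tested as the difference of the log2 changes, KO minus WT. Over all members and ligands edgeR called 0 differences, with 7 lower and 12 higher at an unadjusted p under 0.05, and DESeq2 called 0. Over all genes 0.129% of these tests were called lower in KO and 0.0197% higher. The late differences at the lowest unadjusted p were those of Ccnd2, Ccnd1, Rrm1, Top2a, Ccna2 and Mcm6. They are given above except that of Mcm6, for which late levels are given and a difference of 2.08 at 4 h alone. A difference that misses the threshold here does not show that the genotypes acted alike.

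Genes of the same pathways outside the 32 were counted from lists, to be read beside the late shares over all genes of 0.593% lower and 1.58% higher in KO cells and 0.686% lower and 2.09% higher in WT cells. Of 46 other G1/S genes 45 were tested, and of the 540 late tests 2 were called lower in KO and 2 in WT cells, each resting on at most 4 late counts. Of 60 other G2/M genes 55 were tested, and of the 660 late tests 6 were called lower in KO and 9 in WT cells, with 0 higher in either. Kif23, a motor of the midbody, made up 2 of the KO calls and 5 of the WT calls. Late after Pam3Cys it had 51.2 and 47.3 CPM in KO plates, against 11.7 and 9.98 CPM in WT plates, and at time 0 it had 69.2 and 57.9 CPM in KO plates and 46.5 and 43.6 CPM in WT plates. Its log2 change with Pam3Cys in WT cells was -1.95 (SE 0.54, edgeR adjusted p = 0.0207), lost without either WT plate, against own time 0 wells and at 4 h alone. With Poly(I:C) it was -1.87 (SE 0.52) in KO cells and -2.02 (SE 0.54) in WT cells, the KO call being lost without KO replicate 1 and the WT call without either WT plate and at 4 h alone. Kif20b, a kinesin of cytokinesis, was called lower with LPS in both genotypes, at -3.06 (SE 0.93) in KO and -4.13 (SE 0.95) in WT cells, from 5 late counts in KO and 4 in WT, and each call was lost without either plate of its genotype and against own time 0 wells, the KO call also without either WT plate. Kif20b was also called lower in WT cells with Poly(I:C) and Zymosan, each call being lost under 4 alternatives. Smc4, a condensin subunit, was called lower in KO cells with MDP/LPS (-1.42) and Zymosan (-1.18), the Zymosan call being lost without KO replicate 1, without either WT plate and at 4 h alone.

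Among inhibitors of the cycle the clearest change was in Cdkn1a, which encodes the CDK inhibitor p21. Late after Pam3Cys it had 793 and 707 CPM in KO plates, against 3791 and 4092 CPM in WT plates, and late after R848 773 and 477 CPM in KO plates, against 2966 and 3008 CPM in WT plates. At time 0 it had 651 and 607 CPM in KO plates and 697 and 738 CPM in WT plates. Cdkn1a thus stayed near time 0 in KO plates and stood several-fold above it in WT plates with these ligands. The log2 change with Pam3Cys was 0.22 in KO cells, not called, and 2.55 (SE 0.34) in WT cells, and the difference KO minus WT was -2.33 (SE 0.46, edgeR quasi-likelihood test, Benjamini-Hochberg adjusted p = 0.0018). With R848 the difference was -2.14 (SE 0.47, adjusted p = 0.0079). Without WT replicate 1 or 2 neither difference was called (adjusted p = 0.451 and 0.386 for Pam3Cys, 0.896 and 0.583 for R848), and without wells under 150000 counts the R848 difference was not called either (0.094). At 4 h alone both missed the threshold (0.172 for Pam3Cys and 0.122 for R848). With LPS Cdkn1a had 7374 and 4571 CPM in KO plates and 7669 and 5636 CPM in WT plates, and it rose in both genotypes with LPS, MDP/LPS, Zymosan, Poly(I:C) and SeV, at log2 changes of 2.46 to 3.50 in KO cells and 2.81 to 3.60 in WT cells. None of these 10 calls was lost under any alternative run.

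The lists that follow stand beside the same late shares over all genes (0.593% lower and 1.58% higher in KO, 0.686% lower and 2.09% higher in WT). Of the 12 CDK inhibitors and pocket proteins 11 were tested, and over 132 late tests 1 was lower and 5 higher in KO cells and 0 lower and 9 higher in WT cells. The higher calls were all Cdkn1a, in WT cells also with Pam3Cys, R848, CpG and FLA, so they count 1 gene over ligands. Its WT calls with R848, CpG and FLA were lost under 1, 3 and 4 alternatives. Over growth-arrest genes (12 of 13 tested, 144 tests) 7 were lower and 11 higher in KO cells and 8 lower and 9 higher in WT cells. Gadd45b, a stress-induced growth-arrest gene, had 143 and 157 CPM late after Pam3Cys in KO plates, against 1146 and 1139 CPM in WT plates, and its late difference was called with Pam3Cys (-2.20, SE 0.53), R848 (-2.62, SE 0.54) and CpG (-2.91, SE 0.54), each lost without either WT plate and against own time 0 wells, and that for Pam3Cys also on library totals and at 4 h alone. Sesn1, a stress-response gene, moved the other way from these, with late log2 changes of -3.01 with Zymosan in WT cells and -2.24 with LPS in KO cells, the KO call being lost without KO replicate 1. It was also called late in WT cells with Pam3Cys, R848, CpG, LPS, MDP/LPS, Poly(I:C) and SeV, each lost under 1 to 4 alternatives. Its KO calls with Poly(I:C) and TDB were lost under 2 and 5 alternatives. Most lower WT calls of this list thus count 1 gene over ligands. Btg2, an anti-proliferative immediate-early gene, rose early with 4 ligands in KO cells (2.92 to 4.14) and 8 in WT cells (2.18 to 3.65), and was not called late. The 8 WT calls were lost without either WT plate, that for Poly(I:C) also with DESeq2 and against own time 0 wells, and the KO call with Zymosan without KO replicate 1 and against own time 0 wells. Btg1, of the same family, rose late in KO cells with LPS (0.91), MDP/LPS (0.98), Zymosan (0.91) and Poly(I:C) (1.04). The first 3 of these calls were lost without either WT plate and on library totals, that for Zymosan also without KO replicate 1 and with no filter on low counts, and that for LPS under 8 alternatives in all, each plate left out included. No late difference between genotypes was called for Btg1, so these calls do not show a rise particular to KO cells. Over the MYC family and growth-factor input (13 of 15 tested, 156 tests) 0 were lower and 11 higher in KO cells and 1 lower and 11 higher in WT cells. Cdkn1b, Myc, the third D-type cyclin gene Ccnd3 and the CSF1 receptor gene Csf1r were not called late in either genotype. The late calls of the MYC family list thus fell on other genes, which are not named here.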

How the data were processed

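RNA was measured in each well by a modified SCRB-Seq protocol that sequences transcript 3′ ends, per the labels' protocols. The values deposited by the authors are whole-number gene counts for each well, and they were tested unchanged. BWA and mm10 are named in the submitters' processing notes. The aligner's version, the annotation and the counting program are not stated in any source read here. The table held 0 columns of other samples. Plate totals were 32320373 and 29737092 counts in KO and 37323548 and 31280223 in WT, of which Rn45s took 7.52% to 9.37%. No well repeated another (chi-square per degree of freedom at least 3.05 over 192 pairs).

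Plate sums (74 groups of 2; late sums of 314684 to 1876446 counts) entered 1 edgeR 4.0.16 quasi-likelihood fit in R 4.3.3, with TMM and filterByExpr at a minimum count of 10, which left 10562 genes, all 32 members among them. The standard error is the absolute log2 change over the square root of F, and intervals are 1.96 standard errors either way. Adjustment was by Benjamini-Hochberg within each comparison, with a threshold of 0.05. Time 0 wells of all ligand labels were pooled per plate. Genes with 0 to 3 counts in a group get no fold. Counts limit the precision, and no interval covers more than the spread between plates.

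All members are named, with values for those called and for the 8 of highest mean CPM. Of the other G2/M and growth-arrest lists up to 4 called genes of smallest p are named. Cdkn1a, Cdkn1b, Btg1, Btg2, Myc, Ccnd3 and Csf1r are named whatever they did. Called genes of the other G1/S list and of the MYC family list are not named. The members and lists were chosen with earlier results of these data known, so counts over them are no independent evidence. Promoters matched by symbol for 26 of 32 members, and positions by symbol in GENCODE for mm10. Alternatives were DESeq2 1.42.0 (fitted per time class), its size factors, no filter, each plate left out, plate as a replicate block within genotype, wells in place of sums, wells under 150000 counts left out, Rn45s left out, the ligand's own time 0 wells, and 4 h alone. Library totals without TMM, TMM-scaled sums and the middle difference between genotypes were added after the data were seen. Replicate numbers are plates within a genotype and were not taken to pair KO with WT plates. Within a genotype, deviations of the same plate in different groups had a median correlation of 0.0198 in KO and 0.0142 in WT over 666 pairs each. These correlations set no KO plate against a WT plate.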

Additional observations from a re-analysis of the deposited data

How the results depend on the processing

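The 5 late rises of Ccnd2 in KO cells, and the calls against late MDP that were higher in KO cells, kept their count under every alternative run. Lower calls among members were less steady. Late in WT cells (2 lower as reported) there were 1 with no filter, 6 with DESeq2, 8 with wells, 4 without shallow wells, 0 with own time 0 wells, 9 at 4 h alone and 4 on library totals; higher calls there (5) were 9 with DESeq2, 10 with wells and 8 without shallow wells. Late in KO cells (1 lower) there were 4 with DESeq2, 5 with wells and 2 on totals. Wells gave 1 call at time 0, 4 for the late difference, 1 early in KO and 3 early in WT, where own time 0 wells gave 2. Middle calls in KO (5) were 8 with DESeq2, 8 with wells, 8 without shallow wells and 2 on totals. Lower calls against late MDP were 10 with DESeq2, 11 with wells and 10 on totals in WT (6), and 2, 4 and 2 in KO (1). The wells of a plate are not separate cultures.

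Leaving out each plate in turn gave 0 to 2 lower late calls in KO and 0 to 7 in WT, 3 to 10 higher late calls in WT, 0 to 2 late differences, 0 to 2 early calls in KO and 0 to 2 in WT, 1 to 6 middle calls in KO and 0 to 11 in WT, 0 to 2 middle differences, and against late MDP 1 to 3 lower calls in KO, 0 to 13 lower and 2 to 8 higher in WT. A lone plate is then assumed to vary like the other groups. All lower late calls went without WT replicate 1 or WT replicate 2, also those of KO. The causes were not tested. With the replicate block late lower calls were 1 in KO and 3 in WT, higher ones 5 in KO and 6 in WT, and lower calls against late MDP in WT 9. Members with as few counts as Cdk1, which had 3 late counts with LPS in WT cells, get no fold.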
